A study of Danio rerio with 35 samples.

Results

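The proteasome is the barrel-shaped protease that breaks down proteins tagged with ubiquitin. Its 20S core is a stack of alpha and beta rings: the outer alpha rings gate the entrance and the inner beta rings carry the protein-cutting sites. The 19S particle caps the core. In its base, a ring of ATPases unfolds the substrate beside subunits that scaffold the particle and bind ubiquitin, and its lid removes the ubiquitin chain. Working heart muscle turns over damaged contractile proteins through this route, and dividing cells use it to destroy cyclins. Its subunits are needed in fixed proportions, and in mammals their genes are known to be transcribed together, under the factor Nfe2l1.

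The genes described here encode the subunits of the zebrafish proteasome, its assembly chaperones, its alternative caps and its inhibitor. They were chosen by symbol, as those that begin with psma to psmg followed by a digit, leaving out the named inducible subunits of immune cells and psmc3ip, which is no proteasome subunit. The rule gave 48 of the 14781 genes in the count table. They were divided by role into the alpha ring (9 genes), the beta ring (7), a thymus-type beta subunit (1), the ATPase ring (7), the non-ATPase subunits of the base (4), the lid (9), chaperones of the base (3), chaperones of the core (3) and activators with an inhibitor (5).

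The adult hearts were taken whole, and their polyA RNA gave 4 libraries from klf1 overexpressing zebrafish and 4 from WT zebrafish. Klf1 is a zinc-finger transcription factor known from red blood cell development, and the series asks by its title about renewal of adult heart muscle cells. The labels give no strain, age in numbers, promoter, duration or cell type of the overexpression, and nothing in them ties each library to a fish of its own, so that p-values measure the spread between libraries, which may be technical. A further 27 of the series' 35 samples were not used here.

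Libraries held 9829896 to 13083853 counts. The overexpressed gene itself averaged 646 ± 63.7 CPM in klf1 hearts and 216 ± 78.9 CPM in WT hearts (SD, n = 4 each; CPM are depth-scaled counts with TMM factors for composition). Of 14 heart muscle cell markers in the table, 13 were tested and 12 were lower in klf1 hearts, or 92.3%, against 29.4% of all tested genes. The summed level of these markers was 38144 to 58154 CPM in klf1 hearts, against 246479 to 288287 CPM in WT hearts. In a bulk tissue, fewer cells of a type and less RNA per cell cannot be told apart.

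Most proteasome genes were moderately higher in klf1 hearts. Of the 46 members with enough counts to test, 32 were higher, 2 were lower and 12 were not called (edgeR's quasi-likelihood test, Benjamini-Hochberg adjusted p under 0.05 over all 10493 genes tested). Over all tested genes 61.6% were called, 32.2% as higher and 29.4% as lower, while 69.6% of the tested members were higher and 4.35% lower. The median log2 fold change, klf1 minus WT, was 0.47 over the members, a 1.39-fold difference, and 0.033 over all tested genes. The changes were small and lay close together: the interquartile range of the members' log2 fold changes was 0.30 to 0.69, and that of all tested genes was -0.56 to 0.67. Of the 32 called higher, 30 stayed below a log2 fold change of 1, and their folds ran from 1.24 to 2.22. In 27 members every klf1 library lay above every WT library, and in 2 members below; over all tested genes 29.8% lay above and 27.2% below.

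**Figure D1:**
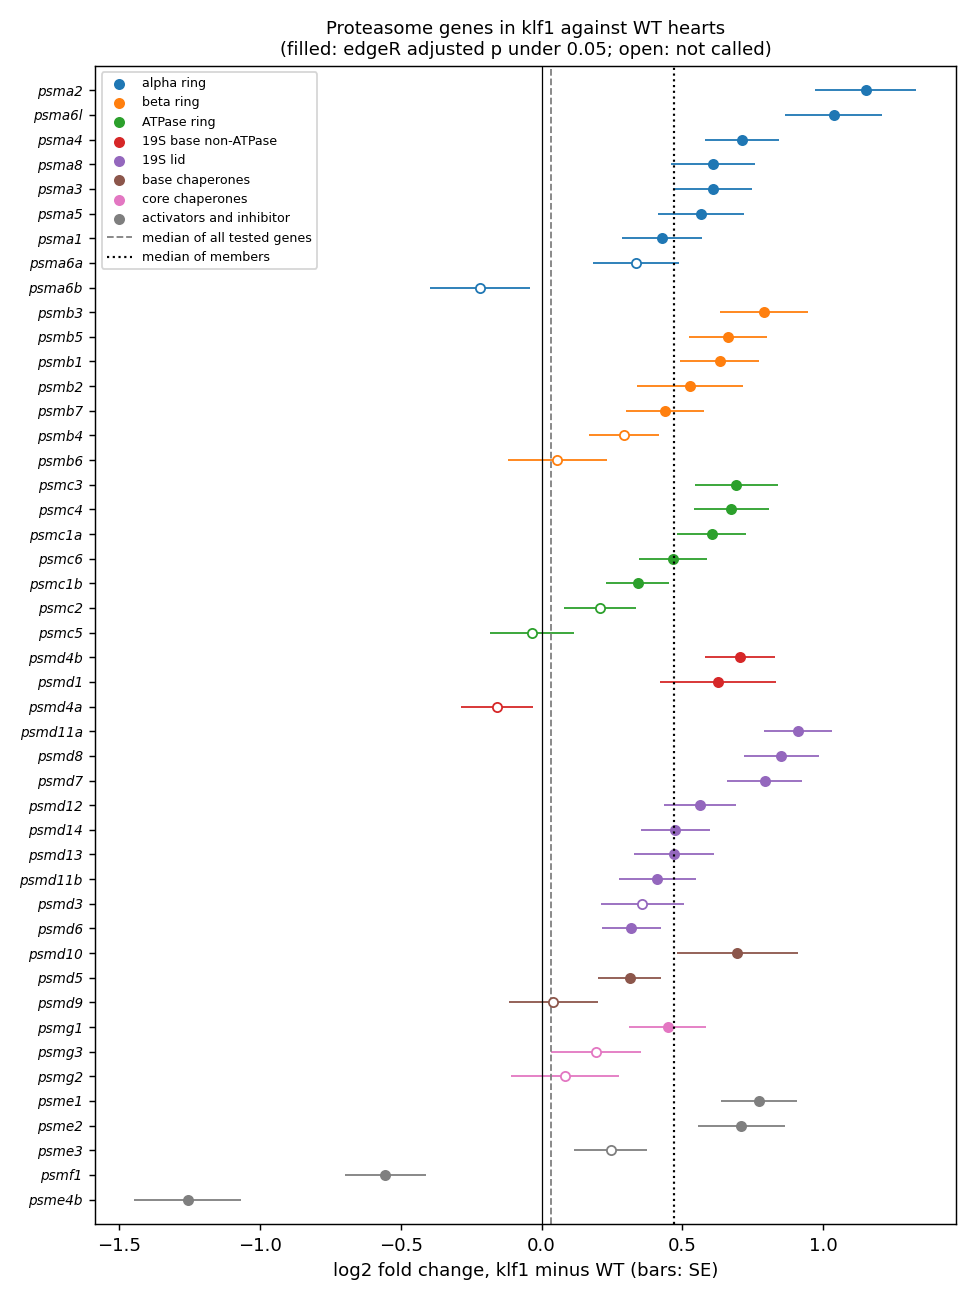
Log2 fold change (klf1 minus WT, x axis) of the 46 tested members, grouped by role, with SE bars; filled points are called at an edgeR adjusted p under 0.05 and open points are not. The points cluster around the members' median of 0.47, psma2 stands highest at 1.15, and psmf1 and psme4b stand alone among called genes on the negative side.

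These log2 values are relative to the TMM scaling, which put the median of all tested genes at 0.033. Scaled by library totals alone, the median of all genes moved to 0.75 and that of the members to 1.19; 44 members were then higher and 1 lower, with 65.1% of all tested genes higher. The distance between both medians was 0.44 with TMM factors and between 0.38 and 0.50 in each of 18 alternative settings. A change of scaling factors moves all genes nearly alike. The scaling alternatives, each at 0.44, therefore could not have changed this distance. As a share of all counts in a library, which is the scaling by library totals and holds the same shift of all genes, the members together took 0.428 ± 0.0223% in klf1 hearts and 0.2003 ± 0.00528% in WT hearts (SD, n = 4 each). The lowest klf1 library stood at 0.397% and the highest WT library at 0.208%, so the genotypes did not overlap.

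**Figure D2:**
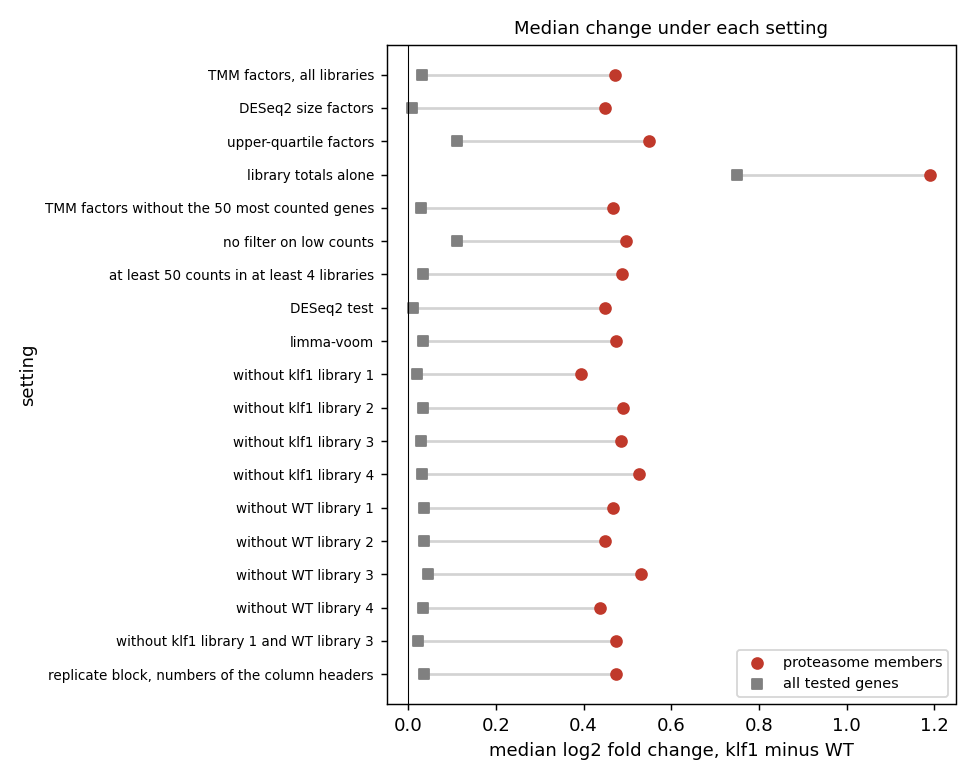
Median log2 fold change (x axis) of the tested members (circles) and of all tested genes (squares) with the setting used here at the top and each of the 18 alternatives under it. Both medians move right together with library totals alone, to 1.19 and 0.75, and the gap between them stays between 0.38 and 0.50. Other scaling factors move all genes nearly alike and cannot change the gap.

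A pair of libraries stood apart from the others of their genotype. Klf1 library 1 gave the highest value of its genotype for 36 of the 46 tested members and WT library 3 for 35, and 32 members were highest in both. In contrast psmb5, psmd1, psmd3 and psme4b were lowest of their genotype in both libraries. How many of all tested genes were highest or lowest in these libraries was not counted. psmd1 lay 0.55 below the klf1 mean in klf1 library 1 and 0.52 below the WT mean in WT library 3, on the log2 scale. Leaving out both gave 34 higher and 3 lower members and put their median at 0.47. Over all tested genes 3535 were then higher, or 33.5%, and 3253 lower, with a median of 0.022. The added lower member was psma6b, at -0.29.

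**Figure D3:**
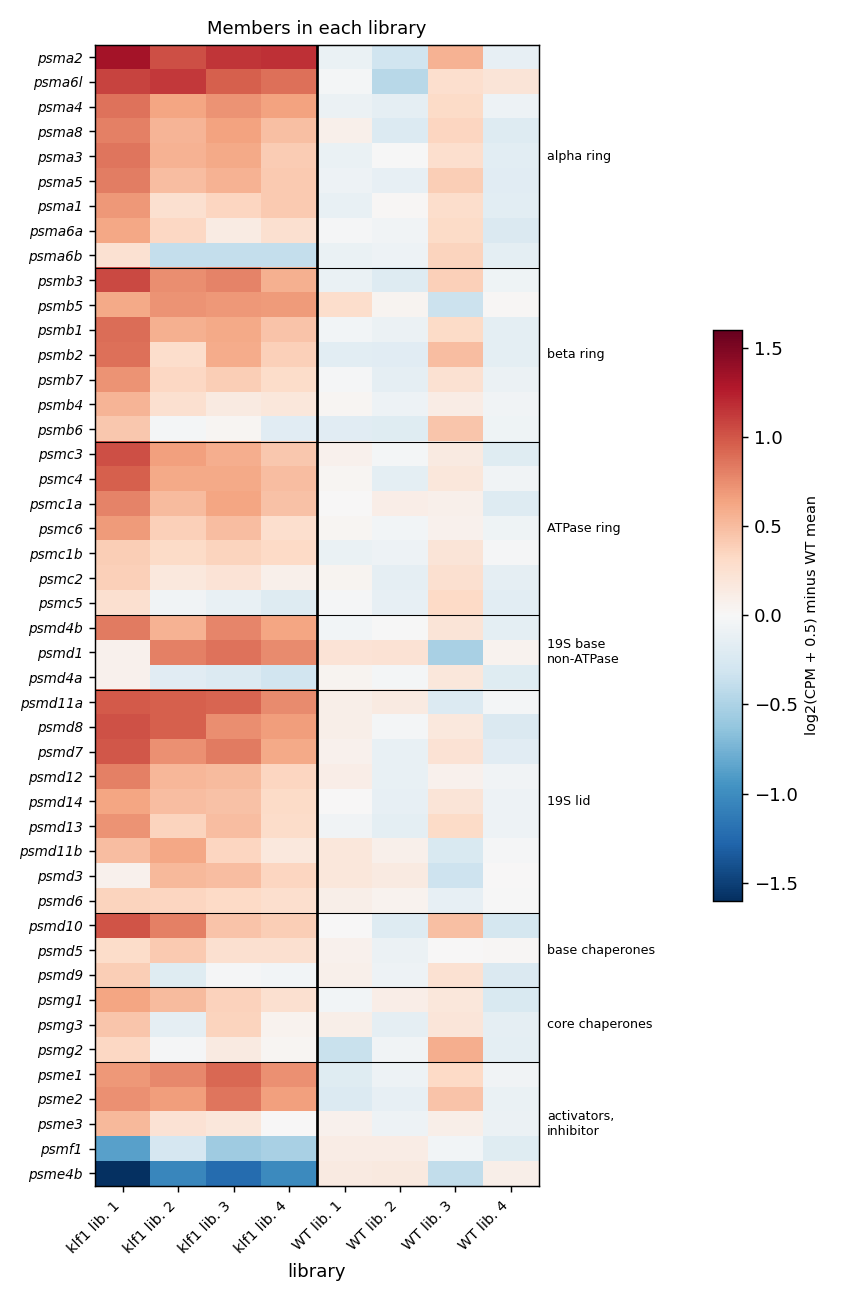
Each tested member (rows, by role) in each library (columns, klf1 left of WT), as log2(CPM + 0.5) minus the gene's mean over the WT libraries. Nearly all rows are redder in the klf1 columns, klf1 library 1 and WT library 3 are the reddest columns of their genotype, and psmd1, psmd3 and psme4b break that pattern.

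The alpha ring forms the gated outer surface of the core. Of its 9 tested genes 7 were higher and none was lower, and their log2 fold changes had a median of 0.61. The higher ones are 77.8%, against 32.2% of all tested genes, of which 29.4% were lower. The largest rise of all members was that of psma2, with 55.1, 44.5, 48.0 and 49.0 CPM in klf1 libraries 1 to 4, against 20.02, 17.1, 31.7 and 19.6 CPM in WT libraries 1 to 4. All klf1 libraries lay above all WT libraries, and the log2 fold change was 1.15 ± 0.18 (SE; edgeR adjusted p = 0.000147).

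psma8, for which RefSeq lists psma7 as an older symbol, is an alpha subunit with 133, 110.4, 118 and 106 CPM in klf1 hearts, against 80.2, 65.1, 95.9 and 65.3 CPM in WT hearts. The groups did not overlap, and the log2 fold change was 0.61 ± 0.15 (edgeR adjusted p = 0.00365). The ring's other members psma4 (0.71 ± 0.13), psma3 (0.61 ± 0.14), psma5 (0.56 ± 0.15) and psma1 (0.43 ± 0.14) rose as well. psma1 overlapped between genotypes and lost its call without klf1 library 1 (edgeR adjusted p = 0.0557), WT library 1 (0.0644) or WT library 4 (0.0708).

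A single position of the alpha ring is encoded by 3 genes in the table, and they did not change alike. psma6l rose, with 14.8, 15.2, 13.5 and 12.8 CPM in klf1 hearts, against 6.56, 4.79, 8.20 and 7.84 CPM in WT hearts (log2 fold change 1.04 ± 0.17 SE, edgeR adjusted p = 0.000226). psma6a had 42.3, 34.4, 29.9 and 32.6 CPM in klf1 hearts, against 26.9, 26.3, 33.9 and 23.2 CPM in WT hearts, overlapped and was not called (0.33 ± 0.15, edgeR adjusted p = 0.0731; 0.0188 without WT library 3, and 0.0497 or less in 4 other alternatives). psma6b had 35.9, 23.1, 23.1 and 23.2 CPM in klf1 hearts, against 27.96, 28.5, 38.7 and 27.1 CPM in WT hearts (-0.22 ± 0.18, edgeR adjusted p = 0.308). Apart from klf1 library 1, the klf1 values of psma6b lay below every WT value, and without that library it was called lower (-0.42, edgeR adjusted p = 0.0241); with library totals alone it was higher (0.50). Of the summed counts of the 3 copies, psma6l took 18.97 ± 2.28% in klf1 hearts and 10.6 ± 2.25% in WT hearts (SD, n = 4 each), and psma6b took 34.7 ± 2.87% in klf1 hearts and 46.96 ± 1.13% in WT hearts.

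The beta ring carries the active sites. Of its 7 genes, all tested, 5 were higher and none was lower, with a median of 0.53. The higher ones are 71.4%, against 32.2% of all tested genes, of which 29.4% were lower. The 3 catalytic subunits were not all called, and their changes were not tested against each other. psmb5, the chymotrypsin-like subunit, had 141, 153, 149 and 149 CPM in klf1 hearts, against 112, 95.0, 72.6 and 93.8 CPM in WT hearts. The klf1 libraries lay close together and above all WT libraries (log2 fold change 0.66 ± 0.14 SE, edgeR adjusted p = 0.00126). psmb7, the trypsin-like subunit, rose by 0.44 ± 0.14 (edgeR adjusted p = 0.0151), and lost its call without WT library 2 (0.0545) or WT library 4 (0.0505).

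psmb6, the caspase-like subunit, had 70.5, 51.4, 53.6 and 46.02 CPM in klf1 hearts, against 46.03, 45.7, 71.2 and 50.002 CPM in WT hearts. In each genotype a single library stood above the rest, and the gene was not called (0.056 ± 0.18, edgeR adjusted p = 0.804; 0.77 and called higher with library totals). Among the structural subunits psmb3 had the largest change of the ring, with 90.2, 73.0, 75.4 and 64.1 CPM in klf1 hearts, against 39.9, 37.4, 56.5 and 41.3 CPM in WT hearts (0.79 ± 0.16, edgeR adjusted p = 0.000908). psmb1 rose by 0.63 ± 0.14 without overlap. psmb2 rose by 0.53 ± 0.19 (edgeR adjusted p = 0.0279) with an overlap through WT library 3, and lost its call when any of 5 single libraries was left out (adjusted p up to 0.0844).

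psmb4 had 130.1, 107, 98.9 and 101 CPM in klf1 hearts, against 90.9, 83.9, 96.8 and 85.5 CPM in WT hearts. All klf1 libraries lay above all WT libraries, but the gene was not called (0.29 ± 0.12 SE, edgeR adjusted p = 0.0598). It was called higher in 5 of 18 alternatives, which were upper-quartile factors (adjusted p = 0.0299), library totals (1.16e-05), the stricter count filter (0.0442), without WT library 3 (0.0431) and without both libraries that stood apart (0.0449). The thymus-type subunit psmb11b, a beta subunit of the kind that vertebrate thymus uses, had 2, 1, 2 and 1 counts in klf1 libraries and 0, 0, 0 and 1 counts in WT libraries, too few to test. These are at or under the 3 counts that a count of 0 still allows.

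The inducible beta subunits of immune cells were outside the rule. Their psmb8a, the inducible counterpart of psmb5, averaged 74.6 ± 10.6 CPM in klf1 hearts and 26.9 ± 12.7 CPM in WT hearts (SD, n = 4 each), with a log2 fold change of 1.47 ± 0.27 (SE).

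The ATPases of the base pull the substrate apart and feed it into the core. Of their 7 genes, all tested, 5 were higher and none was lower, with a median of 0.47. The higher ones are 71.4%, against 32.2% of all tested genes, of which 29.4% were lower. psmc3, psmc4 and the psmc1 genes encode the ATPases whose tails are known to dock into the alpha ring and open its gate. psmc3 had 129, 99.6, 94.5 and 84.9 CPM in klf1 hearts, against 65.9, 61.7, 69.7 and 54.9 CPM in WT hearts. The lowest klf1 library stood above the highest WT library (log2 fold change 0.69 ± 0.15 SE, edgeR adjusted p = 0.0014). psmc4 rose by 0.67 ± 0.13, psmc1a by 0.60 ± 0.12, psmc6 by 0.47 ± 0.12 and psmc1b by 0.34 ± 0.11, each without overlap. The call of psmc1b was lost without WT library 1, 2 or 4 (edgeR adjusted p between 0.0587 and 0.07001).

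The ATPases psmc2 and psmc5 stood outside the calls. psmc2 had 84.6, 73.3, 75.7 and 68.5 CPM in klf1 hearts, against 67.0, 58.6, 77.6 and 58.7 CPM in WT hearts (0.21 ± 0.13 SE, edgeR adjusted p = 0.184; 0.0477 without WT library 3). psmc5 had 137, 110.3, 106 and 99.5 CPM in klf1 hearts, against 114, 105, 143 and 102 CPM in WT hearts. Its groups overlapped widely, and its log2 fold change was -0.035 ± 0.15 (edgeR adjusted p = 0.858), or 0.044 with upper-quartile factors and 0.68, then called higher, with library totals.

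Of the non-ATPase subunits of the base, psmd4 is a ubiquitin receptor and psmd1 a large scaffold. The scaffold psmd2 was listed at 0 in all 8 libraries, in a complex whose other subunits were all counted, so the entry is not read as absence. psmd4b had 58.4, 47.9, 56.5 and 50.5 CPM in klf1 hearts, against 31.6, 32.4, 37.6 and 29.0 CPM in WT hearts (log2 fold change 0.71 ± 0.12 SE, edgeR adjusted p = 0.000373). Its twin psmd4a had 68.2, 57.5, 56.0 and 52.7 CPM in klf1 hearts, against 67.2, 63.6, 73.7 and 57.0 CPM in WT hearts. These overlapped and were not called (-0.16 ± 0.13, edgeR adjusted p = 0.299), although psmd4a was higher with library totals (0.56).

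psmd1 had 109, 182, 191 and 176 CPM in klf1 hearts, against 122, 123, 72.7 and 109 CPM in WT hearts. The 3 high klf1 libraries lay above all WT libraries, while klf1 library 1 fell among them (0.63 ± 0.21 SE, edgeR adjusted p = 0.0194). Its call was lost without klf1 library 3 (edgeR adjusted p = 0.0516).

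The lid holds the deubiquitinase and the subunits that frame it. Of its 9 genes within the rule, all tested, 8 were higher and none was lower, with a median of 0.47. The higher ones are 88.9%, against 32.2% of all tested genes, of which 29.4% were lower. psmd11a, which clamps the lid to the core, had 58.1, 56.8, 55.9 and 49.6 CPM in klf1 hearts, against 31.2, 32.4, 25.1 and 28.6 CPM in WT hearts. The lowest klf1 library was well above the highest WT library (log2 fold change 0.91 ± 0.12 SE, edgeR adjusted p = 4.09e-05). psmd7, the partner of the deubiquitinase, had 113, 94.5, 101 and 86.1 CPM in klf1 hearts, against 59.3, 51.9, 66.7 and 49.8 CPM in WT hearts, and rose by 0.79 ± 0.13. psmd8 rose by 0.85 ± 0.13, and neither gene overlapped between genotypes.

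psmd14, the deubiquitinase itself, had 68.6, 62.4, 61.2 and 54.8 CPM in klf1 hearts, against 44.3, 40.4, 51.2 and 41.8 CPM in WT hearts (0.47 ± 0.12 SE, edgeR adjusted p = 0.00508). psmd12 had 108, 89.3, 87.8 and 78.4 CPM in klf1 hearts, against 66.2, 56.5, 64.4 and 59.1 CPM in WT hearts, with no overlap (0.56 ± 0.13, edgeR adjusted p = 0.00216). psmd13 rose by 0.47 ± 0.14 with an overlap through WT library 3. The smallest change of the lid was that of psmd6, with 87.9, 87.3, 85.8 and 82.9 CPM in klf1 hearts, against 73.2, 71.3, 62.6 and 68.6 CPM in WT hearts. Its klf1 libraries differed little and stood above all WT libraries (0.32 ± 0.11, edgeR adjusted p = 0.0197), and its call was lost without klf1 library 2 (0.0567) or WT library 4 (0.0576).

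psmd11b had 75.2, 82.0, 67.9 and 59.8 CPM in klf1 hearts, against 60.5, 56.3, 44.8 and 52.6 CPM in WT hearts (0.41 ± 0.14 SE, edgeR adjusted p = 0.0213). klf1 library 4 overlapped with WT, and the call was lost without klf1 library 2 (0.0803), without WT library 4 (0.0572) or without both libraries that stood apart (0.0768). psmd3 had 54.6, 74.3, 73.5 and 66.0 CPM in klf1 hearts, against 58.7, 57.4, 41.1 and 52.1 CPM in WT hearts, and was not called (0.36 ± 0.15, edgeR adjusted p = 0.052). In 6 of 18 alternatives psmd3 was called higher, among them without klf1 library 1 (0.43, edgeR adjusted p = 0.0193). The others were upper-quartile factors (0.0146), library totals (0.000102), no count filter (0.0452), the stricter count filter (0.0408) and without both libraries that stood apart (0.0113).

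Zebrafish carry several subunits as duplicated genes, and in 3 of the 4 pairs the balance between the copies differed by genotype. The share of 1 copy in the summed counts of a pair does not depend on scaling. psmd4a gave 53.8, 54.6, 49.8 and 51.1% of the pair's counts in klf1 hearts, against 68.0, 66.3, 66.2 and 66.2% in WT hearts. The share was 14.4 percentage points lower in klf1 hearts, with 52.3 ± 2.27% in klf1 hearts and 66.7 ± 0.875% in WT hearts (SD, n = 4 each).

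psma6a gave 54.2, 59.8, 56.5 and 58.5% of the psma6a and psma6b counts in klf1 hearts, against 49.1, 48.05, 46.7 and 46.1% in WT hearts. It took 57.2 ± 2.48% on average in klf1 hearts and 47.5 ± 1.34% in WT hearts. psmd11a gave 43.6, 40.9, 45.1 and 45.3% of the psmd11a and psmd11b counts in klf1 hearts, against 34.002, 36.5, 35.9 and 35.2% in WT hearts, with means of 43.7 ± 2.04% in klf1 hearts and 35.4 ± 1.08% in WT hearts. For each of these 3 pairs the genotypes did not overlap, with an exact two-sided permutation p of 0.0286 over 70 assignments, the smallest this design allows, and 0.0381 adjusted over the 4 pairs. psmc1a gave 70.5, 67.7, 68.7 and 66.9% of its pair in klf1 hearts, against 66.3, 67.5, 62.5 and 61.6% in WT hearts. It took 68.4 ± 1.55% in klf1 hearts and 64.5 ± 2.88% in WT hearts, and the shares overlapped (exact permutation p = 0.0571, also after adjustment). The authors' counting could have split or dropped reads that fit both copies, so the levels of single copies are uncertain.

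**Figure D4:**
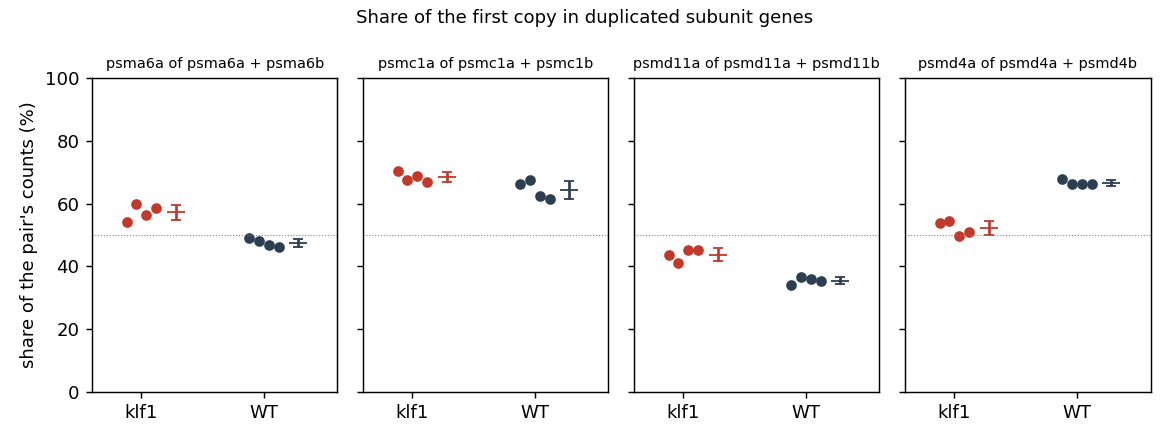
Share of the first copy in the summed counts of each duplicated pair (y axis, percent), per library, with mean and SD; klf1 left of WT in each panel. The psma6a and psmd11a shares are higher and the psmd4a share lower in klf1 hearts without overlap, while the psmc1a shares overlap.

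Assembly chaperones hold unfinished rings and are absent from the finished protease. Of the 3 that build the base, 2 were higher, or 66.7% against 32.2% of all tested genes. psmd10, known as gankyrin, had 12.9, 11.2, 8.70 and 8.28 CPM in klf1 hearts, against 6.21, 5.29, 8.81 and 5.02 CPM in WT hearts, overlapping through WT library 3 (log2 fold change 0.69 ± 0.21 SE, edgeR adjusted p = 0.0143). psmd5 had 20.8, 22.7, 20.2 and 20.1 CPM in klf1 hearts, against 17.7, 15.7, 16.9 and 17.04 CPM in WT hearts (0.31 ± 0.11, edgeR adjusted p = 0.028; up to 0.101 in the 5 alternatives that lost the call). psmd9 had 24.3, 16.1, 18.2 and 17.9 CPM in klf1 hearts, against 19.4, 17.4, 21.8 and 15.6 CPM in WT hearts (0.042 ± 0.16, edgeR adjusted p = 0.838; 0.76 and called higher with library totals).

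Of the 3 chaperones of the core, 1 was higher, or 33.3%, near the 32.2% of all tested genes. psmg1 had 30.5, 27.98, 25.3 and 23.5 CPM in klf1 hearts, against 18.9, 21.2, 22.2 and 16.4 CPM in WT hearts. Its groups did not overlap (0.45 ± 0.14 SE, edgeR adjusted p = 0.013; 0.051 without WT library 4). Its binding partner psmg2 had 23.4, 18.1, 20.4 and 18.8 CPM in klf1 hearts, against 14.3, 17.6, 27.7 and 16.4 CPM in WT hearts, and WT library 3 lay above all klf1 libraries. It was not called (0.084 ± 0.19, edgeR adjusted p = 0.73), nor was psmg3, which had 20.9, 13.7, 19.5 and 15.8 CPM in klf1 hearts, against 16.2, 13.7, 17.4 and 13.7 CPM in WT hearts (0.19 ± 0.16, edgeR adjusted p = 0.315). Both were called higher with library totals (0.80 and 0.91).

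The caps other than the 19S particle were the members that moved in opposite directions. psme1 and psme2 encode the ring-shaped activator that interferon induces in mammals. psme1 had 100.3, 106, 117 and 102 CPM in klf1 hearts, against 54.0, 58.4, 77.5 and 59.4 CPM in WT hearts. Its groups did not overlap (log2 fold change 0.77 ± 0.13 SE, edgeR adjusted p = 0.000338). psme2 had 95.6, 92.2, 105 and 91.3 CPM in klf1 hearts, against 49.4, 52.6, 79.1 and 53.6 CPM in WT hearts, also without overlap (0.71 ± 0.15, edgeR adjusted p = 0.00169).

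psme3 encodes the related nuclear activator, and had 68.8, 56.4, 54.5 and 48.1 CPM in klf1 hearts, against 50.3, 45.5, 51.3 and 44.98 CPM in WT hearts. It overlapped and was not called (0.25 ± 0.13 SE, edgeR adjusted p = 0.123; 0.96 and called higher with library totals). psme4b encodes a copy of the large single-chain activator PA200, which in mammals acts in the nucleus. It had 78.6, 129.8, 113 and 132 CPM in klf1 hearts, against 296, 300.0, 204 and 286 CPM in WT hearts. Every klf1 library lay below every WT library (-1.26 ± 0.19, edgeR adjusted p = 0.000106), and the fall was called in all 18 alternatives, with -0.54 as the smallest, under library totals. Of the summed counts of all members, psme4b took 3.44 ± 0.932% in klf1 hearts and 10.6 ± 2.21% in WT hearts (SD, n = 4 each). The count table holds no other gene with a psme4 symbol, so these values cover this copy alone.

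psmf1, whose product binds the core and inhibits it in purified form, had 19.4, 29.4, 23.9 and 24.8 CPM in klf1 hearts, against 38.9, 38.8, 34.6 and 31.1 CPM in WT hearts. The groups did not overlap (-0.56 ± 0.14 SE, edgeR adjusted p = 0.00524). With library totals alone the value was 0.17 and not called (edgeR adjusted p = 0.316).

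**Figure D5:**
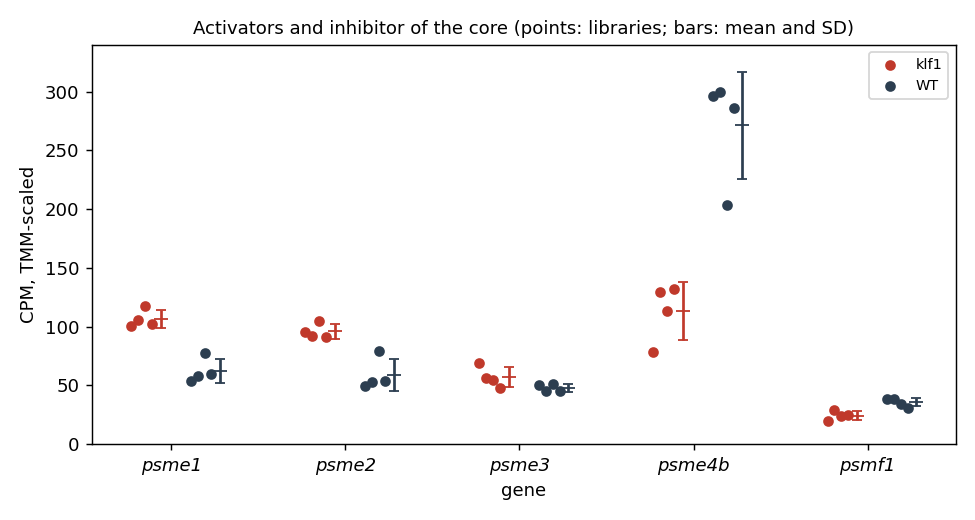
TMM-scaled CPM (y axis, from 0) of the activators and the inhibitor in each library, klf1 left of WT for each gene, with mean and SD. psme1 and psme2 are higher and psme4b and psmf1 lower in klf1 hearts without overlap, and psme3 overlaps.

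The composition of the members' summed counts was also compared between genotypes. The 36 genes of core and 19S particle within the rule included psmd2 at 0. They took 84.6 ± 1.23% of the members' counts in klf1 hearts and 77.7 ± 1.47% in WT hearts (SD, n = 4 each). Activators with the inhibitor took 11.9 ± 1.37% in klf1 hearts and 18.6 ± 1.74% in WT hearts. The difference in these 2 shares rested on psme4b. With its counts left out, the core and 19S genes took 87.6 ± 0.498% in klf1 hearts and 86.97 ± 0.645% in WT hearts, and activators with the inhibitor took 8.81 ± 0.603% in klf1 hearts and 8.89 ± 0.45% in WT hearts, all overlapping. With psme4b in the sum the lid took 21.2 ± 0.629% in klf1 hearts and 18.7 ± 0.767% in WT hearts, without overlap, and without psme4b it took 21.98 ± 0.688% in klf1 hearts and 20.9 ± 1.31% in WT hearts, with overlap. The ATPase ring took 18.7 ± 1.03% in klf1 hearts and 18.4 ± 0.748% in WT hearts, with overlap. Without psme4b it took 19.3 ± 0.88% in klf1 hearts and 20.5 ± 0.335% in WT hearts, also with overlap. The alpha ring took 17.8 ± 0.9% in klf1 hearts and 15.6 ± 1.68% in WT hearts, and overlapped with and without psme4b. The beta ring took 18.6 ± 0.688% in klf1 hearts and 17.1 ± 0.72% in WT hearts, without overlap, and overlapped without psme4b. Both chaperone groups overlapped with psme4b in the sum and not without it. Without psme4b, chaperones of the base took 1.56 ± 0.0679% in klf1 hearts and 1.81 ± 0.0614% in WT hearts. Chaperones of the core then took 1.99 ± 0.0867% in klf1 hearts and 2.33 ± 0.218% in WT hearts. These shares are of raw counts, to which longer transcripts contribute more, so they compare genotypes and not the amounts of the groups.

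Genes that work with the proteasome were described list by list, beside all tested genes, of which 32.2% were higher and 29.4% lower with a median of 0.033, and 65.1% were higher with library totals. None of the lists was tested against the proteasome members. Of 13 tested assembly factors and associated proteins outside the rule, 3 were higher and 1 lower, or 23.1% and 7.69%, with a median of 0.24, and 12 were higher with library totals. usp14 and uchl5 encode the deubiquitinases that sit on the 19S particle. usp14 averaged 66.1 ± 10.8 CPM in klf1 hearts and 32.1 ± 2.95 CPM in WT hearts (SD, n = 4 each; log2 fold change 1.04 ± 0.14 SE, edgeR adjusted p = 4.19e-05), and uchl5 rose by 0.52 ± 0.11. The importin ipo9, known to carry proteasomes into the nucleus in flies, rose by 0.49 ± 0.16. The lower gene was zfand5b, which averaged 77.7 ± 13.5 CPM in klf1 hearts and 183 ± 27.5 CPM in WT hearts (-1.23 ± 0.16). pomp, the maturation factor of the core, read 0.26 ± 0.15 and was not called (edgeR adjusted p = 0.142). The list also holds adrm1 and shfm1, subunits of the 19S particle whose symbols fall outside the rule. Neither was called, with 0.20 ± 0.13 for adrm1 (edgeR adjusted p = 0.194) and 0.26 ± 0.12 for shfm1 (0.0773). Both were called higher with library totals (0.91 and 0.98).

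The next list held transcription factors known for proteasome genes and the proteins that process them. Of 19 tested, 7 were higher and 8 lower, or 36.8% and 42.1% against 32.2% and 29.4% of all tested genes, with a median of 0.015, or 13 higher and 1 lower with library totals. The Nfe2l1 copies stood at -0.89 ± 0.17 (SE) for nfe2l1a, called lower, and 0.21 ± 0.20 for nfe2l1b, not called (edgeR adjusted p = 0.388). With library totals nfe2l1a read -0.18 and was not called, and nfe2l1b read 0.92 and was called higher. The processing enzymes of Nfe2l1 rose, the protease ddi2 by 0.72 ± 0.16 and the deglycosylase ngly1 by 0.44 ± 0.13.

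The related factor nfe2l2a averaged 162 ± 8.12 CPM in klf1 hearts and 87.4 ± 13.6 CPM in WT hearts (SD, n = 4 each; 0.89 ± 0.13 SE, edgeR adjusted p = 0.00011). Its inhibitors keap1a (-0.71 ± 0.14) and keap1b (-0.38 ± 0.15) were lower, and neither call held with library totals. Of its small Maf partners, maff rose by 1.49 ± 0.15 and mafk by 1.16 ± 0.14. The small Maf gene mafgb was not called (0.39 ± 0.27, edgeR adjusted p = 0.239), and mafga had too few counts to test. The large Maf gene mafbb, also on the list, rose by 2.43 ± 0.20. Subunits of the CCAAT-binding factor went both ways: nfya rose by 0.84 ± 0.14, while nfybb (-0.84 ± 0.16) and nfyc (-0.83 ± 0.12) were lower. Its nfyal (-0.23 ± 0.18) and nfyba (0.015 ± 0.16) were not called. The factors yy1a (-0.29 ± 0.11) and yy1b (-0.38 ± 0.11) were also lower. None of these lower calls held with library totals, where yy1a (0.43) and yy1b (0.33) were called higher and nfybb and nfyc were not called. The heat shock factor hsf1 averaged 47.7 ± 6.69 CPM in klf1 hearts and 115 ± 23.5 CPM in WT hearts (-1.27 ± 0.17).

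Of 5 tested ubiquitin precursor and activating enzyme genes, 1 was higher and 1 lower, and over all tested genes 32.2% were higher and 29.4% lower. The polyubiquitin gene ubc averaged 887 ± 42.2 CPM in klf1 hearts and 534 ± 36.5 CPM in WT hearts (SD, n = 4 each; log2 fold change 0.73 ± 0.13 SE), and ubb averaged 153 ± 6.79 CPM in klf1 hearts and 400.1 ± 24.5 CPM in WT hearts (-1.39 ± 0.12). The activating enzyme uba1 read 0.29 ± 0.15 and was not called (edgeR adjusted p = 0.116). Reads of genes with repeated ubiquitin units could be shared between them, so these levels are uncertain.

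Of 33 tested ubiquitin-conjugating enzymes 12 were higher and 9 lower, with a median of 0.11. These are 36.4% and 27.3%, near the 32.2% and 29.4% of all tested genes, and with library totals 24 were higher and 2 lower. ube2c, which serves the destruction of mitotic cyclins, averaged 16.9 ± 3.16 CPM in klf1 hearts and 0.906 ± 0.537 CPM in WT hearts (SD, n = 4 each; 4.20 ± 0.30 SE), and its partner ube2s rose by 1.19 ± 0.11. The 9 lower genes ran from ube2e3 (-1.42 ± 0.13) to ube2h (-0.37 ± 0.14), with ube2g1b (-1.11 ± 0.12), ube2d4, ube2d3, ube2q1, cdc34a, ube2ka and ube2b between them. Of these 9, the calls of ube2e3 and ube2g1b alone held with library totals.

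Of 18 tested shuttles and parts of the Vcp unfoldase system, which hands substrates to the proteasome, 1 was higher and 7 lower, or 5.56% and 38.9% against 32.2% and 29.4% of all tested genes, with a median of -0.24. With library totals 11 were higher and none lower, and without both libraries that stood apart 2 were higher and 11 lower. The shuttle rad23ab read -1.02 ± 0.16 (SE) and was called lower, as was the Vcp cofactor ubxn4 (-0.52 ± 0.12). The higher gene was another Vcp cofactor, nsfl1c (0.86 ± 0.14). vcp itself averaged 340 ± 27.6 CPM in klf1 hearts and 268 ± 60.98 CPM in WT hearts (SD, n = 4 each), with overlap, and was not called (0.34 ± 0.18, edgeR adjusted p = 0.114).

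The COP9 signalosome is built on the same plan as the proteasome lid. Of its 7 tested genes none was higher and 2 were lower, cops2 (-0.81 ± 0.14 SE) and cops7a (-0.47 ± 0.11), by edgeR, with a median of -0.11. The lower ones are 28.6%, near the 29.4% of all tested genes, of which 32.2% were higher. Both lower calls were lost with library totals, where 5 of the 7 were higher and the median was 0.61. For the 9 lid genes the median was 0.47 with TMM factors and 1.19 with library totals.

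Markers of other cells were counted beside all tested genes, of which 32.2% were higher and 29.4% lower, and 65.1% higher with library totals. All 24 tested genes of dividing cells were higher, with summed levels of 1482 to 2018 CPM in klf1 hearts, against 110.2 to 163 CPM in WT hearts. Among 19 tested genes of macrophages and granulocytes 18 rose, with sums of 1536 to 2055 CPM in klf1 hearts, against 341 to 784 CPM in WT hearts. Of 13 tested fibroblast and epicardial genes 8 were higher, with sums of 2232 to 5314 CPM in klf1 hearts, against 1362 to 1868 CPM in WT hearts, and pdgfrb of that list was at 0 in all 8 libraries.

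Of 12 tested endothelial genes 1 was higher and 6 lower, with sums of 2199 to 3856 CPM in klf1 hearts, against 1974 to 2964 CPM in WT hearts. The higher gene, vwf, weighed most in these sums. It averaged 1790 ± 618 CPM in klf1 hearts and 984 ± 254 CPM in WT hearts (SD, n = 4 each). The median log2 fold change of the endothelial list was -0.32. Of 8 tested red blood cell genes none was higher and 3 were lower by edgeR, with sums of 1347 to 1975 CPM in klf1 hearts, against 1744 to 2548 CPM in WT hearts. The lower ones are 37.5% of the list, not far from the 29.4% of all tested genes. With library totals alone 5 endothelial genes were higher and 1 lower, 2 red blood cell genes were higher and none lower, and 11 heart muscle cell markers were lower and 1 higher. No other marker in the table was at 0 in every library. Among the WT libraries, WT library 3 held the highest sum of macrophage and granulocyte genes (784 CPM) and the highest psme1 and psme2. It was also the highest WT library for 35 of the 46 tested members. Klf1 library 1, the highest of its genotype for 36 members, held the lowest klf1 sum of these genes (1536 CPM). The part of these cell markers in the proteasome differences was not tested.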

How the data were processed

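The authors deposited raw counts per gene for each of 8 polyA RNA libraries, 4 from klf1 overexpressing and 4 from WT hearts, grouped here by the genotype label. Per the labels' protocols, RNA came from Qiagen miRNeasy kits and libraries from Kapa stranded mRNA kits. Bowtie2 2.2.8, deepTools 3.1.2 and the danRer10 build stand in the submitters' processing notes with no role; RNA aligner, counter and annotation were not given in the sources used here. No genome of that build and no sequence table were used, so no coordinates, sequences or length-scaled levels are given. RefSeq listed 47 of 48 members by symbol and 1 by an older symbol.

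Under R 4.3.3, edgeR 4.0.16 filtered the table (filterByExpr, 10493 of 14781 genes kept, 46 members among them), computed TMM factors and ran its robust two-sided quasi-likelihood test on genotype. A call needs a Benjamini-Hochberg adjusted p below 0.05 over all tested genes. SE is approximate, taken as log2 fold change over root F. Members had 38 to 2955 counts per library when tested, and 44 had at least 100 in every library. No libraries were duplicates (chi-square over degrees of freedom at least 6.71). The procedure was tested on simulated data. Few genes changed in them and as many rose as fell, unlike in these libraries, so the scaling was not put to the test. Shares within duplicated pairs were tested by exact permutation.

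The rule for named genes gave per-library values to the members with the extreme changes and the highest CPM of each role (per coding length was planned), uncalled or opposite members and duplicated pairs; from each other list it took the 3 smallest adjusted p and genes called against the majority. Genes named outside it (psmb7, psmd14, psmd12, pomp, ipo9, vcp, nfe2l1a, nfe2l1b, keap1a, keap1b, hsf1, psmb8a, vwf and those whose calls changed) were named after their values were seen. The same holds for nfyal, nfyba, nfybb, nfyc, yy1a, yy1b, mafga, mafgb, adrm1 and shfm1. The members and lists were chosen with earlier results of these data known. Alternatives were other scalings (DESeq2 size factors, upper quartile, library totals, TMM without the 50 most counted genes), filters (none; 50 counts in 4 libraries), DESeq2 1.42.0, limma-voom (limma 3.58.1), leaving out libraries, and a replicate block.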

Additional observations from a re-analysis of the deposited data

Results flagged for a closer look

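Among 100 groups of 4 values (46 members and 4 pair shares in each genotype), 9 had a highest or lowest library far from the other 3; chance flags about 1 in 20 groups. WT library 3 was the far one in 7 of them. It was above the other WT libraries for psma4 (63.3 CPM, others 46.3 to 48.5), psma5 (76.7, others 51.4 to 55.1), psma6b (38.7, others 27.1 to 28.5), psmb2 (66.0, others 41.1 to 41.8), psmb6 (71.2, others 45.7 to 50.002) and psme2 (79.1, others 49.4 to 53.6). It was below them for psme4b (204 CPM, others 286 to 300.0). The others were psma6b in klf1 library 1 (35.9 CPM, others 23.1 to 23.2) and the psmd4a share of its pair in WT library 1 (68.0%, others 66.2 to 66.3%). The cause was not tested.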

How the results depend on the processing

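Of the 46 tested members, 24 kept their call and direction in all 18 alternatives. Of these, 23 members were called higher and 1, psme4b, lower in every one. The matching share of all tested genes was not counted. Scaling mattered most. With library totals alone 6836 genes were higher and 1398 lower, the members' median was 1.19, 1 member was lower, and psma6b (0.50), psmc5 (0.68), psmd4a (0.56) and psmf1 (0.17) turned positive; psmc5 was also positive with upper-quartile factors (0.044). Leaving out each library in turn gave 24 to 35 members higher and 2 to 3 lower, a median of 0.39 to 0.53, 3163 to 3551 genes higher and 2853 to 3144 lower, and 4 uncalled members changed sign: psmb6 ran from -0.094 to 0.22, psmc5 from -0.15 to 0.075, psmd9 from -0.11 to 0.12 and psmg2 from -0.040 to 0.32. Without WT library 4, 24 members were higher, without WT library 3, 35. Without klf1 library 1 and WT library 3 together, a choice made after seeing the data, psmd9 read -0.024. Leaving out each library, the difference in the psmc1a share ran from 3.04 to 5.01 percentage points and was called without WT library 2 alone. Shares per coding length were not run, since no lengths were used. The sample titles number the RNA libraries without repeats, while the count table's headers number each genotype from 1 to 4. With those numbers as a replicate block, added after seeing the data, 29 members were higher and 2 lower, with 3215 genes higher and 2896 lower. In that fit psmc1b, psmd5 and psmd6 lost their calls. Deviations of same-numbered libraries correlated at -0.22 to 0.11, and those of differently numbered libraries at -0.22 to 0.37. So few libraries cannot settle whether the numbers pair them. At these depths a count of 3 equals 0.179 to 0.378 CPM, which limits psmb11b alone among members with counts.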
